A study of Saccharomyces cerevisiae with 12 samples.

Results

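The alachlor effect common to both experiments is the average change in transcript level that Saccharomyces cerevisiae cultures showed with alachlor, taken over a lower and a higher concentration that were tested separately. All 12 of the 12 Affymetrix Yeast Genome 2.0 arrays of the study entered: 6 of treated cultures and 6 of untreated ones. The strain was BY4741, a haploid of the S288C background with mating type a that lacks LEU2, MET17 and URA3 and part of HIS3, so treated and untreated cultures share these deletions. Alachlor is a chloroacetanilide herbicide, known in plants as an inhibitor of very-long-chain fatty acid synthesis. Exponentially growing cells were kept for 2 h in minimal medium with 110 mg/L alachlor (the LOEC experiment, 3 arrays) against 3 LOEC controls without it, or with 200 mg/L (the IC20 experiment, 3 arrays) against 3 IC20 controls without it. The labels call the 3 arrays of a group biological replicates and do not say what was separate between them. The p-values therefore rest on the spread between these arrays in the fits described below. Each concentration has its own experiment, so concentration and experiment cannot be told apart.

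The values are intensities per probe set on a linear scale, and 1 probe set stood for each of 5449 genes. For every gene the shared effect is the log2 change of the 6 treated arrays over the 6 untreated ones in a model with a term for the experiment, tested with limma at a Benjamini-Hochberg adjusted p under 0.05 over all 5449 genes. Beside it stands the response at 110 mg/L, the log2 change of the 110 mg/L arrays over the LOEC controls. The response at 200 mg/L is the log2 change of the 200 mg/L arrays over the IC20 controls. Each response has a test, and these tests share 1 estimate of the spread per gene, pooled over the 4 groups. A gene is said to rise or fall where its shared effect passed. The spread used in the shared test also holds any difference between the responses at 110 and 200 mg/L. Where these responses differ, the SE of the shared effect is wider and a call can be missed. A change given for a gene is its shared log2 change, with the log2 responses at 110 and at 200 mg/L in brackets where they are shown. As these are RNA levels of whole cultures, a change in the share of cells of a kind and a change of RNA per cell cannot be told apart.

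In budding yeast, pleiotropic drug resistance is a transcriptional program run mainly by the zinc cluster factors Pdr1 and Pdr3. Their targets include ABC transporters that pump unrelated compounds out of the cell, such as Pdr5, Snq2 and Yor1, and membrane proteins and enzymes that change the lipids of the plasma membrane, such as Rsb1, Rta1, Ict1 and Pdr16. Other programs known to answer chemical stress in this organism supply iron, phosphate and sulfur, reduce reactive carbonyl compounds, or lower the production of ribosomes.

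The arrays were alike in overall brightness, with medians of 1561.3 to 1613, and replicates correlated over probe sets at r = 0.993 to 0.9983. Within groups, the SD of a gene was 0.057 (log2) at 110 mg/L, 0.056 in the LOEC controls, 0.095 at 200 mg/L and 0.082 in the IC20 controls, as medians over genes. Deviations from the group mean followed coding length in the IC20 experiment (Spearman's rho over genes from -0.488 to 0.57) more than in the LOEC experiment (-0.078 to 0.152). The mating type fits the label: the pheromone genes MFA1 and MFA2 and the receptor gene STE2 of a cells read between 15341 and 24037 on every array, while MF(ALPHA)1 of alpha cells read at most 40.7 and the alpha-cell receptor gene STE3 at most 198. The agglutinin gene SAG1, known from alpha cells, read 1199 at 110 mg/L and 1226 in the LOEC controls on average, and 1680.0 at 200 mg/L and 1329 in the IC20 controls. The deleted genes LEU2, MET17 and URA3 read at most 228.8 on any array, and HIS3, whose allele in this strain keeps part of the gene, read 8210.0 at 110 mg/L and 7138 in the LOEC controls. Where an array of the dimmer group read below 228.8, the size of a change is given as a lower bound over that level, and the fitted log2 values of such a gene are no measure of size. Where both groups lay below it no size is given. Across the 12 arrays alachlor accounted for 30.5% of the sum of squares over all genes, the experiment for 24.9%, the interaction of both for 7.54% and the spread within groups for 37%.

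The shared effect passed for 1029 of 5449 genes, 18.9% of those tested: 578 rose (10.6%) and 451 fell (8.28%). Every count of members of a gene list given below is to be read against these shares of all genes, also where they are not repeated. Most changes were small. The median absolute shared effect of the genes that passed was a log2 change of 0.21, 643 of them changed by less than 1.2-fold, 79 by at least 1.5-fold and 30 by at least 2-fold, of which 24 rose and 6 fell. At an unadjusted p under 0.05 in limma 1774 genes passed. The balance of rises and falls depends on the scaling: with the values as deposited 56.2% of the genes called for the shared alachlor effect were higher in treated cultures, against 45.5% after quantile normalization and 40.6% after median centring, which moved all genes by 0.026 on the log2 scale. The called genes kept their sign under both, which their choice on these same arrays largely fixes.

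All 1029 genes had the same sign in both experiments, which their choice by the average of both responses largely fixes. The response at 110 mg/L passed for 232 genes (4.26%), 166 higher (3.05%) and 66 lower (1.21%). The response at 200 mg/L passed for 971 (17.8%), 546 higher (10%) and 425 lower (7.8%). Of the 1029 genes, 210 passed in both responses, 525 at 200 mg/L alone, 13 at 110 mg/L alone, and 281 in neither response. The pooled spread gave both responses the same median SE of 0.0673, although replicates varied more in the IC20 experiment. In 834 of the 1029 (81%) the absolute response was larger at 200 mg/L, against 67.4% of all genes, and in 195 it was larger at 110 mg/L. Over the 210 genes called in both, the response at 200 mg/L was 1.35 times that at 110 mg/L in the median (quartiles 1.1 and 1.7), for concentrations in a ratio of 1.82. The test of the difference between the responses passed for 68 genes (1.25%), 54 of them higher (0.991%) and 14 lower (0.257%) at 200 mg/L. Of these 68, 56 also passed the shared test, and all 56 had the larger response at 200 mg/L. Across the 5449 genes the responses, which share no array, correlated at Pearson's r = 0.646 and Spearman's rho = 0.537, given as a description since genes of 1 array are not independent. Fitted alone, each with its own spread, the LOEC experiment gave 314 calls and the IC20 experiment 444. The split of calls between the responses thus depends on how the spread is estimated. In these separate fits only 187 genes were called in both with the same sign. All 187 were among the 1029, which is largely fixed since both tests use the same arrays. Of 164 genes that passed and were picked by the rule for naming, 152 passed without any 1 array. INO1, MGA2, NDE1, PRE4, RRP7 and TES1, described below, were among the 12 that did not. The 164 were picked on these same arrays for large effects or small p, so they do not stand for the 1029. Of the 1029, 781 (75.9%, without IC20 control 1) to 939 (91.3%, without LOEC control 3) still passed when 1 array was left out.

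**Figure D1:**
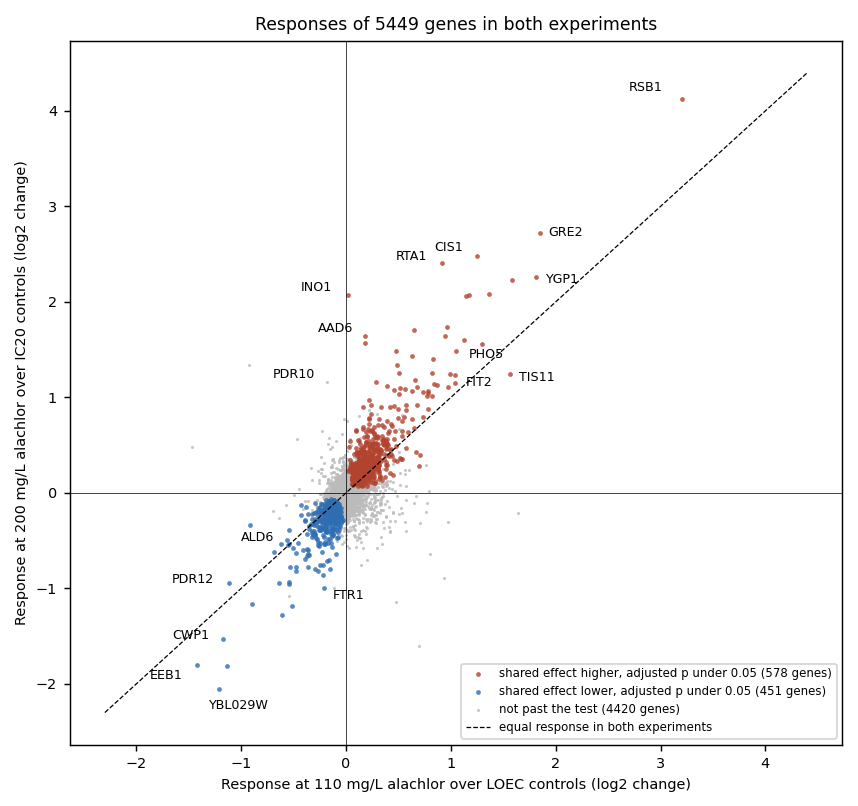
Each of 5449 genes by its response at 110 mg/L over LOEC controls (x axis, log2 change) and at 200 mg/L over IC20 controls (y axis, log2 change), with the 578 genes whose shared effect rose in red, the 451 that fell in blue and the rest in grey; the dashed line marks equal responses. The coloured genes lie at the upper right and lower left, RSB1 stands farthest out at 3.21 and 4.13, and INO1 lies on the vertical axis at 0.018 and 2.07. As controls of RSB1 read below the 228.8 of the deleted loci, its position is no measure of size.

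Drug resistance genes were among the largest shared rises. RSB1 (YOR049C), which encodes a membrane protein of the RTA-like family that releases sphingoid long-chain bases from the cell, read 2058, 2151 and 2019.7 in the 110 mg/L arrays against 222, 227 and 225 in the LOEC controls. RSB1 read 4339, 4118 and 3737 in the 200 mg/L arrays against 216, 239 and 242 in the IC20 controls. All treated arrays lay far above all controls of their own experiment, and RSB1 in the controls read close to the 228.8 of the deleted loci. The rise was at least 9.07-fold at 110 mg/L and at least 17.5-fold at 200 mg/L. The fitted shared log2 change was 3.67 (SE 0.14, 95% interval 3.36 to 3.98, limma adjusted p = 2.38e-08). With controls below 228.8, this fitted value and its interval are no measure of size. YOR1 (YGR281W), an ABC exporter of the plasma membrane, read 7002, 6752 and 6754 in the 110 mg/L arrays against 2685, 2620.5 and 2656 in the LOEC controls. YOR1 read 10336, 10009 and 11445 in the 200 mg/L arrays against 2544, 2386 and 2559 in the IC20 controls. Its groups did not overlap, and it rose 3.31-fold, a shared log2 change of 1.72 (SE 0.11, 95% interval 1.48 to 1.97, limma adjusted p = 1.05e-06). PDR5 (YOR153W), the main drug exporter of this organism, read 18009.5, 17956 and 17877 in the 110 mg/L arrays against 9206, 9180.1 and 9068 in the LOEC controls. PDR5 read 20522, 20555 and 20955 in the 200 mg/L arrays against 9841, 9324 and 9524 in the IC20 controls. It rose 2.06-fold, with a shared log2 change of 1.04 (SE 0.032, 95% interval 0.97 to 1.11, limma adjusted p = 3.31e-09), and its responses were close to each other (0.97 at 110 mg/L and 1.11 at 200 mg/L; difference 0.14, SE 0.049).

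Of the 18 listed targets of Pdr1 and Pdr3, 13 rose and 0 fell, against 10.6% and 8.28% of all genes. The median shared effect of the list was 0.89 (0.56 at 110 mg/L and 1.14 at 200 mg/L), where the median of all genes was 0.003. ICT1, an acyltransferase that makes phosphatidic acid, read 3518, 3289 and 3602 in the 110 mg/L arrays against 1086, 1102 and 1289 in the LOEC controls. ICT1 read 6462, 6115 and 5970.5 in the 200 mg/L arrays against 1223, 1281 and 1459 in the IC20 controls. CIS1, a small protein that helps to clear stalled precursors from the mitochondrial import channel, read 790.5, 784 and 825 in the 110 mg/L arrays against 351, 312 and 344 in the LOEC controls. CIS1 read 2080.1, 2091 and 1974 in the 200 mg/L arrays against 381, 351 and 372 in the IC20 controls. In both genes each treated array lay above each control of its experiment, with shared log2 changes of 1.91 (SE 0.11, adjusted p = 4.53e-07) and 1.87 (SE 0.18, adjusted p = 3.19e-05). The other members that rose were RTA1, a relative of RSB1, the uncharacterized YGR035C (1.43), the phosphatidylinositol transfer protein gene PDR16 (1.04), the exporter SNQ2 (0.89), the uncharacterized YLL056C (0.88), the polyamine exporter TPO1 (0.52), the factor PDR3 itself (0.37) and IPT1 (0.28), which makes the most complex sphingolipids. RTA1 read at most 232 at 110 mg/L, near the level of the deleted loci, and rose at least 2.65-fold at 200 mg/L. PDR10 (0.49) and PDR15 (0.071) did not pass, nor did HXT9, HXT11 and PDR18, which read below 228.8 on all arrays. For 9 of the 18 the difference of the responses passed, each with the higher response at 200 mg/L.

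Exporters outside the Pdr1 and Pdr3 list were mixed. Of 18 measured drug and polyamine antiporters and further exporters 5 rose and 3 fell, with a median of 0.075 (0.052 at 110 mg/L and 0.094 at 200 mg/L). Of all genes 10.6% rose and 8.28% fell. TPO4, a polyamine exporter, rose by 0.62 (0.33 at 110 and 0.90 at 200 mg/L), and the multidrug antiporter QDR3 by 0.41 (0.26 at 110 and 0.56 at 200 mg/L). PDR12 (YPL058C), an ABC exporter of weak organic acids, fell. It read 2179, 2269 and 2261 in the 110 mg/L arrays against 5049, 4973 and 4507 in the LOEC controls. PDR12 read 2363, 2153 and 2963 in the 200 mg/L arrays against 4970.3, 4608 and 4727 in the IC20 controls. Its treated arrays lay below all controls in both experiments, and the shared log2 change was -1.03 (SE 0.07, 95% interval -1.18 to -0.88, limma adjusted p = 1.46e-06), with responses of -1.11 at 110 mg/L and -0.95 at 200 mg/L. QDR2 fell as well, (-0.35, with -0.31 at 110 and -0.40 at 200 mg/L).

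**Figure D2:**
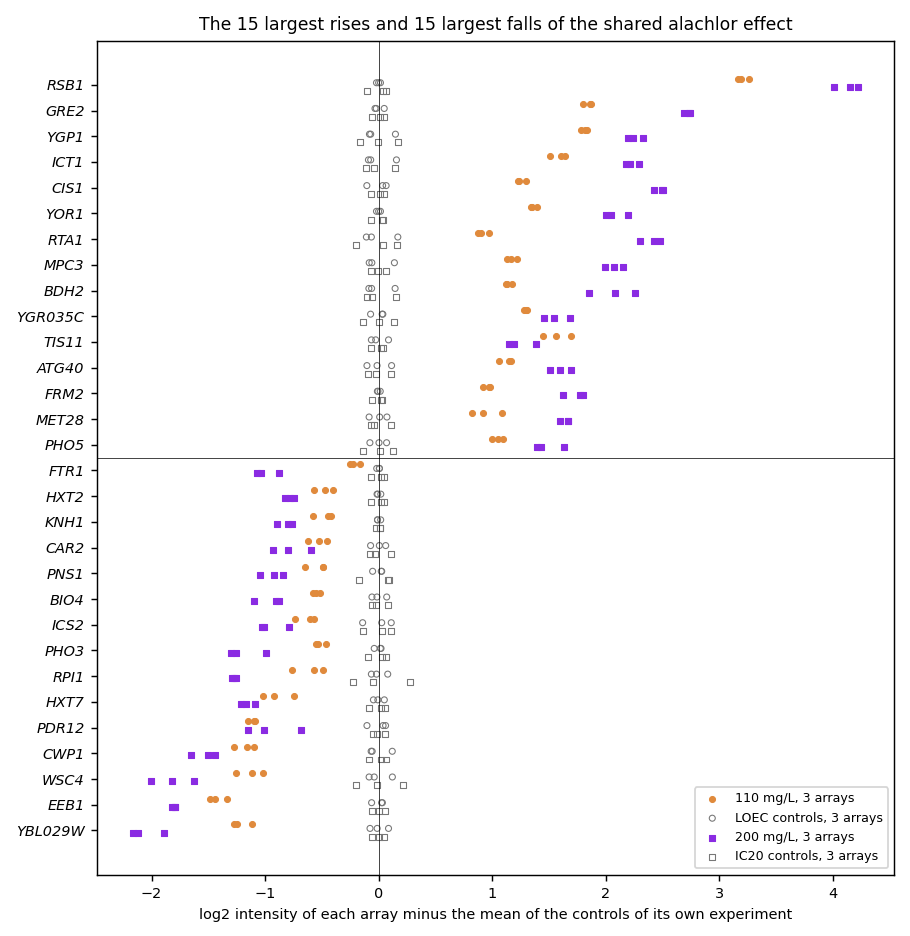
The 15 largest rises and the 15 largest falls of the shared effect whose treated arrays all lie on the same side of the controls of their experiment; each point is 1 array as log2 intensity minus the mean of the controls of its own experiment (x axis), with filled symbols for treated arrays (110 mg/L orange, 200 mg/L violet) and open ones for controls. In 14 of the 15 rises and 14 of the 15 falls the response was larger at 200 mg/L, the exceptions being TIS11 and PDR12.

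Enzymes that reduce carbonyl compounds formed the next group. GRE2 (YOL151W), a reductase of methylglyoxal and other carbonyls, read 10152, 9638 and 10063 in the 110 mg/L arrays against 2708, 2729 and 2864 in the LOEC controls. GRE2 read 17457, 16988 and 17551 in the 200 mg/L arrays against 2517, 2646 and 2714 in the IC20 controls. The arrays of a group lay close together and the groups far apart, and GRE2 rose 4.87-fold (log2 change 2.28, SE 0.13, 95% interval 2.00 to 2.57, limma adjusted p = 4.53e-07). Of 18 carbonyl reductases and glyoxalases 7 rose and 2 fell, with a median of 0.11 (0.028 at 110 mg/L and 0.13 at 200 mg/L). BDH2, a putative alcohol dehydrogenase next to the butanediol dehydrogenase BDH1, rose by 1.60 (1.14 at 110 and 2.06 at 200 mg/L), the nitroreductase-like FRM2 by 1.35 (0.96 at 110 and 1.73 at 200 mg/L) and the aldo-keto reductase GCY1 by 0.80 (0.51 at 110 and 1.09 at 200 mg/L). BDH1 itself fell by 0.35 on the log2 scale, so neighbours on the chromosome moved in opposite directions. In this list the difference of the responses passed for 5 genes, all higher at 200 mg/L.

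Of 5 measured aryl-alcohol dehydrogenases 3 rose: AAD6, AAD4 by 0.53 (0.17 at 110 and 0.90 at 200 mg/L) and AAD10 by 0.20 (0.12 at 110 and 0.28 at 200 mg/L). AAD6 read 198, 185 and 190.2 in the 110 mg/L arrays against 180.1, 165 and 162 in the LOEC controls. AAD6 read 665, 711 and 701 in the 200 mg/L arrays against 240.3, 205 and 220.1 in the IC20 controls. All arrays of the LOEC experiment stayed below the level of the deleted loci, and only the 200 mg/L arrays stood clear of it, by at least 3.03-fold. AAD4 rests on a probe set that also reads similar sequences. Among 21 genes of glutathione synthesis and transfer 6 rose and 1 fell, with a median of 0.038 (0.034 at 110 mg/L and 0.056 at 200 mg/L). The omega class transferase ECM4 rose by 0.66 (0.42 at 110 and 0.90 at 200 mg/L) and the transferase GTT2 by 0.42 (0.16 at 110 and 0.67 at 200 mg/L), while the peptide transporter OPT1, known to take up glutathione, fell by 0.33. GTO3 passed with all arrays below 228.8. In the list labelled oxidative stress under Yap1 7 of 24 rose and 2 fell. The list holds oxidative stress genes in general, with the gene of the factor Yap1 among them, so its count is no measure of Yap1 activity. The mitochondrial peroxiredoxin PRX1 (0.46, with 0.36 at 110 and 0.56 at 200 mg/L) and the peroxidase GPX2 (0.33, with 0.31 at 110 and 0.36 at 200 mg/L) led the rises. The NADPH dehydrogenase OYE3 rose with all arrays below 228.8.

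Lipid genes moved in both directions. Of 27 sphingolipid genes 7 rose and 4 fell, and the median of 0.017 (0.005 at 110 mg/L and 0.024 at 200 mg/L) turned to -0.009 after median centring, with 6 rises and 7 falls. The ceramidase YPC1 rose by 0.45 (0.40 at 110 and 0.50 at 200 mg/L), the sphinganine hydroxylase SUR2 by 0.39 (0.33 at 110 and 0.44 at 200 mg/L), the ceramide synthase subunit LAC1 by 0.34 (0.30 at 110 and 0.38 at 200 mg/L) and IPT1 by 0.28 (0.20 at 110 and 0.36 at 200 mg/L). The 4 that fell were LIP1, LCB3, TSC10 and ORM1, with values of -0.14, -0.15, -0.19 and -0.20, and 2 genes fell without IC20 control 3. Among 26 ergosterol genes 7 rose and 0 fell, with a median of 0.05 (0.035 at 110 mg/L and 0.054 at 200 mg/L); the sterol desaturase ERG3 (0.36, with 0.28 at 110 and 0.45 at 200 mg/L) and the sterol-responsive factor ECM22 (0.22, with 0.15 at 110 and 0.29 at 200 mg/L) led. After median centring 4 of them rose and 1 fell, and without 1 array in turn 4 to 6 rose.

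In phospholipid synthesis 2 of 28 rose and 5 fell (3 to 5 without 1 array in turn, 1 with the replicate number as a block), with a median of -0.043 (-0.04 at 110 mg/L and -0.035 at 200 mg/L). The rises lay below the 10.6% of all genes that rose, and 8.28% of all genes fell. INO1, the enzyme that makes inositol phosphate from glucose phosphate, passed the shared test with a log2 change of 1.05 (SE 0.31, 95% interval 0.38 to 1.71, limma adjusted p = 0.0331), yet it differed by experiment. Its intensities were 467, 459 and 459 in the 110 mg/L arrays against 439, 451 and 479 in the LOEC controls, which overlap. INO1 read 1765, 2011 and 2053 in the 200 mg/L arrays against 517, 396 and 478 in the IC20 controls, which do not overlap. The shared value of INO1 is thus the average of a response of 0.018 at 110 mg/L, which did not pass, and of 2.07 at 200 mg/L, and the difference passed (2.06, SE 0.13, adjusted p = 9.89e-06). With 1 weight per experiment INO1 no longer passed the shared test (adjusted p = 0.127). The phosphatidylserine synthase CHO1 (-0.15) and the choline kinase CKI1 (-0.23) fell. Among 14 fatty acid genes the medium-chain acyl-CoA synthetase FAA2 fell the most, -0.54 (-0.55 at 110 and -0.53 at 200 mg/L), and ACB1 (0.16) and MGA2 (0.11) rose.

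Central carbon metabolism showed rises around pyruvate and acetyl groups. MPC3 (YGR243W), the subunit of the mitochondrial pyruvate carrier used in respiratory growth, read 2552, 2459 and 2396 in the 110 mg/L arrays against 1034, 1051 and 1206 in the LOEC controls. MPC3 read 4495, 4262 and 4028 in the 200 mg/L arrays against 967, 1012 and 1061 in the IC20 controls. It rose 3.08-fold (log2 change 1.62, SE 0.14, 95% interval 1.32 to 1.93, limma adjusted p = 1.14e-05) with no overlap in either experiment. Of 15 genes of pyruvate and carnitine transport 7 rose and 0 fell, among them the carnitine carrier CRC1 (0.73, with 0.29 at 110 and 1.16 at 200 mg/L), the carnitine acetyltransferase YAT2 (0.51, with 0.31 at 110 and 0.71 at 200 mg/L) and the pyruvate carboxylase PYC1 (0.37, with 0.10 at 110 and 0.65 at 200 mg/L). The difference of the responses passed for MPC3, CRC1, YAT2 and PYC1. Of 20 glycolysis genes 7 rose and 0 fell, with a median of 0.10 (0.059 at 110 mg/L and 0.13 at 200 mg/L): GPM2, a homolog of the phosphoglycerate mutase (0.54, with 0.32 at 110 and 0.77 at 200 mg/L), TDH1 (0.35, with 0.22 at 110 and 0.48 at 200 mg/L), the glucokinase GLK1 (0.31, with 0.17 at 110 and 0.44 at 200 mg/L) and the pyruvate kinase isoform PYK2 (0.24, with 0.21 at 110 and 0.27 at 200 mg/L) led them. Of 25 genes of the TCA and glyoxylate cycles 8 rose and 1 fell, with the mitochondrial citrate synthases CIT3 (0.53) and CIT1 (0.29) and PCK1 of gluconeogenesis (0.44) on top. CIT3 and PCK1 read close to the deleted loci in controls, and CIT3 rose at least 1.18-fold at 200 mg/L.

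Some genes of acetaldehyde and ester metabolism fell. EEB1 (YPL095C), an acyltransferase that makes ethyl esters of medium-chain fatty acids, read 1575, 1619 and 1746 in the 110 mg/L arrays against 4485, 4506 and 4218 in the LOEC controls. EEB1 read 1194, 1219 and 1218 in the 200 mg/L arrays against 4382, 4056 and 4220.4 in the IC20 controls. It fell to 0.328 of the control level (log2 change -1.61, SE 0.065, 95% interval -1.75 to -1.47, limma adjusted p = 3.01e-08), and none of the other 4 genes of ester synthesis passed. ALD6 (YPL061W), the cytosolic aldehyde dehydrogenase that makes acetate, read 11796, 10967 and 11235 in the 110 mg/L arrays against 16324, 16375 and 17086 in the LOEC controls. ALD6 read 12394, 11587 and 12098 in the 200 mg/L arrays against 17059, 16874 and 18593 in the IC20 controls. Treated and control arrays did not overlap, and the responses were -0.55 at 110 mg/L and -0.54 at 200 mg/L, a difference of 0.0096, SE 0.071. Its mitochondrial counterpart ALD4 fell (-0.53, with -0.57 at 110 and -0.50 at 200 mg/L). Of 18 genes of aldehyde and acetate metabolism 5 fell and the alcohol dehydrogenase gene ADH5 (0.27) rose. Among 19 hexose transporters and sensors HXT7 (-1.03, with -0.89 at 110 and -1.16 at 200 mg/L), HXT2 (-0.63, with -0.48 at 110 and -0.78 at 200 mg/L) and HXT4 (-0.41, with -0.26 at 110 and -0.55 at 200 mg/L), which serve at low or intermediate glucose, fell, and 5 rose. Of these HXT5, a transporter made in slow growth, had the highest value in the fit, but its controls and nearly all its treated arrays lay below 228.8, and HXT3 (0.18) and HXT1 (0.12), low-affinity transporters, rose by small amounts. The probe set of HXT7 also reads similar sequences.

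The iron regulon of Aft1 and Aft2, the factors that switch on iron uptake when iron is scarce, was raised in part. Of 30 measured members 15 rose and 3 fell, with a median of 0.21 (0.26 at 110 mg/L and 0.14 at 200 mg/L), so that here the lower concentration had the larger median. TIS11 (YLR136C), an RNA-binding protein that speeds the decay of transcripts of iron-using proteins, read 1266, 1167 and 1385 in the 110 mg/L arrays against 410.2, 421 and 456 in the LOEC controls. TIS11 read 1237, 1077 and 1046 in the 200 mg/L arrays against 451, 479.9 and 485 in the IC20 controls. No treated array overlapped a control, and TIS11 rose 2.65-fold (log2 change 1.41, SE 0.071, 95% interval 1.25 to 1.56, limma adjusted p = 1.66e-07) with responses of 1.57 at 110 mg/L and 1.24 at 200 mg/L. FIT2, a wall mannoprotein that retains siderophores, rose by 1.14 (1.04 at 110 and 1.24 at 200 mg/L), the heme oxygenase HMX1 by 0.92 (0.66 at 110 and 1.18 at 200 mg/L) and the siderophore transporter ARN1 by 0.83 (0.79 at 110 and 0.88 at 200 mg/L).

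Within the regulon the high-affinity iron permease went down. FTR1 (YER145C) read 5240.3, 5136 and 5453 in the 110 mg/L arrays against 6152, 6050.4 and 6146 in the LOEC controls. FTR1 read 3412, 3049 and 2976 in the 200 mg/L arrays against 5967, 6463 and 6361 in the IC20 controls. All treated arrays lay below the controls of their experiment. The response at 110 mg/L was -0.21 and did not pass (adjusted p = 0.058), the response at 200 mg/L was -0.9953, and the shared log2 change was -0.60 (SE 0.12, adjusted p = 0.00477). Its partner, the oxidase gene FET3, did not pass (-0.02, adjusted p = 0.9). The low-affinity transporter FET4 (-0.54, with -0.27 at 110 and -0.81 at 200 mg/L) and the biotin transporter VHT1 (-0.52, with -0.37 at 110 and -0.66 at 200 mg/L) fell. Another member, the ferric reductase FRE4, had responses of 0.52 at 110 mg/L and -0.15 at 200 mg/L and no shared call. The difference of the responses passed for 1 member of the regulon with the higher value at 200 mg/L (HMX1) and for 3 with the lower value there (FTR1, FET4 and FRE4).

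Most phosphate starvation genes rose: 13 of 17 measured members rose and 0 fell, against 10.6% and 8.28% of all genes. Their median was 0.22 (0.17 at 110 mg/L and 0.28 at 200 mg/L). The response at 200 mg/L passed for 12 members as higher and for 1 as lower. After quantile normalization or median centring 1 member fell in the shared test. PHO5 (YBR093C), the repressible secreted acid phosphatase, read 2624, 2456 and 2551 in the 110 mg/L arrays against 1166, 1233 and 1291 in the LOEC controls. PHO5 read 3465, 2943 and 3018 in the 200 mg/L arrays against 1017, 1123 and 1216 in the IC20 controls. It rose 2.41-fold (log2 change 1.27, SE 0.083, 95% interval 1.09 to 1.45, limma adjusted p = 1.15e-06) with no overlap. The sodium phosphate symporter PHO89 rose by 1.12 (0.99 at 110 and 1.25 at 200 mg/L), PHO11 by 0.9996 (0.87 at 110 and 1.13 at 200 mg/L), whose probe set also reads similar sequences, and PHM6 by 0.91 (0.78 at 110 and 1.05 at 200 mg/L). The high-affinity transporter PHO84 rose less (0.29), as did the regulator PHO81 (0.22) and the 4 subunits of the vacuolar polyphosphate polymerase, VTC1 to VTC4 (0.17 to 0.36). GIT1, PHO4, PHM7 and PHM8 did not pass, with 0.092, -0.0071, -0.068 and -0.15. The difference of the responses passed for none of the 17 in limma. PHO3, a constitutive acid phosphatase that serves thiamine uptake and lies beside PHO5, fell. It read 4698, 4633 and 4947 in the 110 mg/L arrays against 6626, 6879 and 6910.3 in the LOEC controls. PHO3 read 3845, 3205 and 3109.7 in the 200 mg/L arrays against 7175, 8011 and 7816 in the IC20 controls. Its shared log2 change was -0.85 (SE 0.11, adjusted p = 0.000309). Of 12 zinc genes the transporters ZRT1 (-0.37, with -0.30 at 110 and -0.44 at 200 mg/L) and ZRT2 (-0.16, with -0.10 at 110 and -0.22 at 200 mg/L) and FET4 fell, and PST1 (0.39, with 0.39 at 110 and 0.40 at 200 mg/L) rose.

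**Figure D3:**
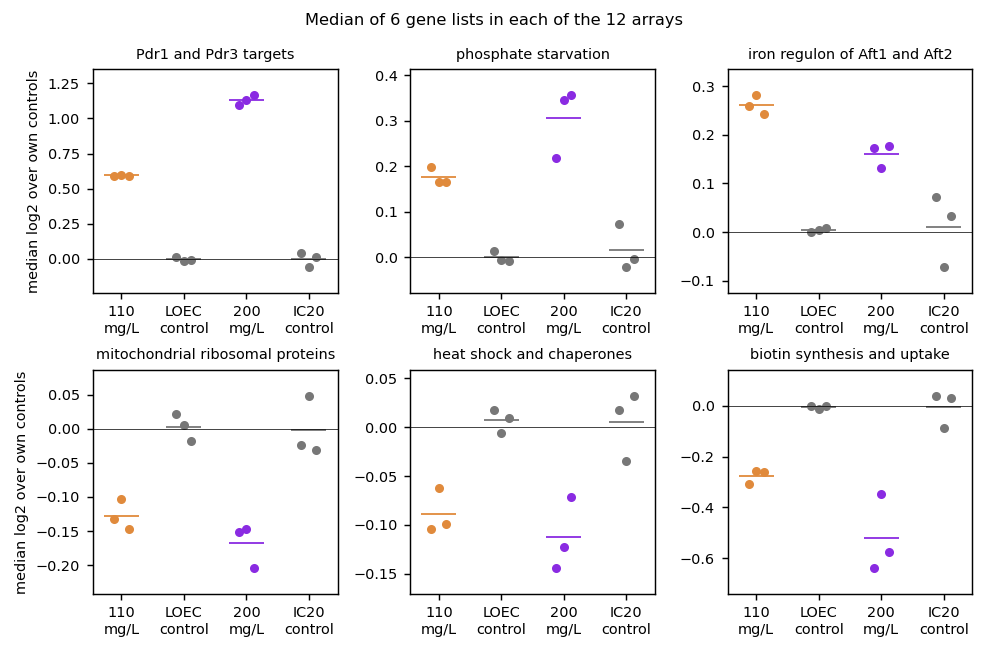
Median log2 intensity over the controls of the same experiment (y axis, scaled separately in each panel) of 6 gene lists in each of the 12 arrays; points are arrays and lines the mean of 3. In all 6 panels the 110 mg/L arrays and the 200 mg/L arrays lie on one side of their controls, at 0.592 to 0.597 and 1.094 to 1.166 for the Pdr1 and Pdr3 targets.

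Sulfur, nitrogen and vitamin genes moved in smaller sets. Of 35 sulfur amino acid genes 10 rose and 3 fell, with a median of 0.065 (0.055 at 110 mg/L and 0.08 at 200 mg/L), which was 0.012 after quantile normalization. MET28, a cofactor of the sulfur regulator Met4, rose at least 1.80-fold at 110 mg/L and at least 2.76-fold at 200 mg/L over controls as dim as the deleted genes. STR3 (YGL184C), the cystathionine beta-lyase, read 781, 748 and 769 in the 110 mg/L arrays against 357, 337 and 429 in the LOEC controls. STR3 read 1007, 957 and 895 in the 200 mg/L arrays against 421, 392 and 475 in the IC20 controls. Its groups did not overlap and the shared log2 change was 1.10 (SE 0.065, adjusted p = 5.44e-07). MET2, the homoserine acetyltransferase, was also dim and rose by at least 1.17-fold at 110 mg/L and 1.504-fold at 200 mg/L. The methionine permease MUP3 rose by 0.53 (0.34 at 110 and 0.71 at 200 mg/L). Of 41 amino acid synthesis genes under Gcn4 9 rose and 0 fell, all by at most 0.23 (HIS7). After median centring 6 of them rose and 4 fell.

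Among 36 genes of nitrogen supply and amino acid permeases 10 rose and 1 fell, with a median of 0.12 (0.05 at 110 mg/L and 0.18 at 200 mg/L). The ammonium permease MEP2 rose by 0.75 (0.39 at 110 and 1.12 at 200 mg/L), DAL3 of allantoin breakdown by 0.60 (0.22 at 110 and 0.98 at 200 mg/L) and the GABA transaminase UGA1 by 0.39 (0.20 at 110 and 0.58 at 200 mg/L). For these 3 the difference of the responses passed. Of 20 genes of vitamin B1 and B6 metabolism 7 rose, led by SNO1 (0.47, with 0.39 at 110 and 0.56 at 200 mg/L), and PHO3 and 1 other gene, THI80 (-0.11), fell. In biotin synthesis and uptake 0 of 6 rose and 5 fell, with a median of -0.42 (-0.30 at 110 mg/L and -0.55 at 200 mg/L). BIO4, the dethiobiotin synthetase, read 570.5, 563 and 588 in the 110 mg/L arrays against 881, 830.0 and 805 in the LOEC controls. BIO4 read 428, 436 and 373 in the 200 mg/L arrays against 787, 846 and 767 in the IC20 controls. It fell with no overlap (log2 change -0.75, SE 0.074, adjusted p = 3.43e-05), and VHT1 (-0.52, with -0.37 at 110 and -0.66 at 200 mg/L), BIO3 (-0.48, with -0.37 at 110 and -0.59 at 200 mg/L), BIO5 (all arrays below 228.8) and BIO2 (-0.20) fell with it, while the biotin ligase gene BPL1 had 0.013 and did not pass.

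Genes of the cell wall held some of the largest changes of both signs. YGP1 (YNL160W), a glycoprotein secreted under nutrient limitation, read 9486, 9403 and 9153 in the 110 mg/L arrays against 2535, 2516 and 2948 in the LOEC controls. YGP1 read 14922, 13677 and 14100.4 in the 200 mg/L arrays against 2660.0, 2959 and 3352 in the IC20 controls. It rose 4.10-fold (log2 change 2.03, SE 0.086, 95% interval 1.85 to 2.22, limma adjusted p = 3.83e-08). CWP1 (YKL096W), a mannoprotein of the wall, read 1579, 1646 and 1458 in the 110 mg/L arrays against 3369.5, 3391 and 3833 in the LOEC controls. CWP1 read 1421, 1357 and 1224 in the 200 mg/L arrays against 3633, 3901 and 4016 in the IC20 controls. It fell to 0.391 of the control level (log2 change -1.35, SE 0.072, 95% interval -1.51 to -1.20, limma adjusted p = 2.36e-07), again with no overlap. WSC4 (YHL028W), a membrane protein of the family of wall stress sensors, read 360.4, 327 and 386 in the 110 mg/L arrays against 762, 739 and 852 in the LOEC controls. WSC4 read 275, 239.9 and 211 in the 200 mg/L arrays against 739, 839 and 982 in the IC20 controls. Its level at 200 mg/L was near that of the deleted loci, so the fall there was at least 3.53-fold, and the response at 110 mg/L was -1.13. Of 22 wall mannoproteins 3 rose and 3 fell, near the 10.6% and 8.28% of all genes. Apart from YGP1 and CWP1 these included PIR3 (0.27, with 0.32 at 110 and 0.21 at 200 mg/L) and TIR4 (-0.32, with -0.15 at 110 and -0.48 at 200 mg/L). Of 34 genes of wall integrity and glucan 10 rose and WSC4 alone fell, the rises being small and led by the yapsin YPS3 (0.43, with 0.35 at 110 and 0.51 at 200 mg/L) and PST1, which is also counted in the zinc list. KNH1, a homolog of a glucan synthesis protein outside these lists, fell (-0.65, with -0.48 at 110 and -0.82 at 200 mg/L).

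Other genes among the 15 largest rises and falls stood outside the lists. ATG40 (YOR152C), a receptor for autophagy of the endoplasmic reticulum, read 2255, 2105 and 2239.6 in the 110 mg/L arrays against 938, 998 and 1091 in the LOEC controls. ATG40 read 2814, 3195 and 2992 in the 200 mg/L arrays against 971, 929.6 and 1070.0 in the IC20 controls. It rose 2.57-fold (log2 change 1.36, SE 0.085, adjusted p = 8.08e-07). The uncharacterized YBL029W read 234, 238 and 262 in the 110 mg/L arrays against 602, 538 and 562 in the LOEC controls. YBL029W read 157, 134 and 130.2 in the 200 mg/L arrays against 559, 603 and 585 in the IC20 controls. It was the largest fall of the 451 in the fit, and against the level of the deleted loci the fall at 200 mg/L was at least 2.54-fold, with a response of -1.21 at 110 mg/L. The putative regulator RPI1 (-0.94, with -0.61 at 110 and -1.27 at 200 mg/L), the uncharacterized ICS2 (-0.79, with -0.64 at 110 and -0.94 at 200 mg/L), the choline transporter relative PNS1 (-0.74, with -0.54 at 110 and -0.94 at 200 mg/L) and the ornithine transaminase CAR2 (-0.65, with -0.53 at 110 and -0.77 at 200 mg/L) fell as well.

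Several groups of genes that make proteins or keep them folded were lower by small amounts. Among them were the mitochondrial ribosomal proteins, the subunits of the ribosome that translates the few genes of mitochondrial DNA: 0 of 69 rose and 43 fell, with a median of -0.14 (-0.13 at 110 mg/L and -0.17 at 200 mg/L) and negative values in both experiments for 64. In the median over the 69 genes the 110 mg/L arrays stood at -0.103 to -0.147 and the LOEC controls at -0.018 to 0.021, the 200 mg/L arrays at -0.147 to -0.204 and the IC20 controls at -0.031 to 0.048, so that the arrays did not overlap. The response passed for 5 of the 69 at 110 mg/L and for 29 at 200 mg/L. The shared test passed for 16 that passed in neither response. MNP1 (YGL068W), the member with the lowest value among those that passed, read 2819.9, 2833 and 2928 in the 110 mg/L arrays against 3364, 3534 and 3233 in the LOEC controls. MNP1 read 2709.6, 2570.2 and 2462 in the 200 mg/L arrays against 3205, 3656 and 3284 in the IC20 controls. Its shared log2 change was -0.31 (SE 0.046, 95% interval -0.41 to -0.21, limma adjusted p = 0.000615). MRPL20 (-0.31, with -0.24 at 110 and -0.37 at 200 mg/L), MRPL15 (-0.29, with -0.20 at 110 and -0.39 at 200 mg/L) and MRP4 (-0.28, with -0.17 at 110 and -0.38 at 200 mg/L) fell by similar amounts. The count of 43 was 32 to 40 when 1 array was left out in turn, 42 with the trend with coding length removed and 25 with the replicate number as a block.

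Of 127 measured genes of cytosolic ribosomal proteins 0 passed the shared test in limma (5 at an unadjusted p under 0.05), with a median of -0.025 (0.005 at 110 mg/L and -0.061 at 200 mg/L), and 26 of them rest on probe sets that also read similar sequences. After median centring 3 fell. For ribosome biogenesis, the factors that build the cytosolic ribosome, 0 of 76 rose and 12 fell, with a median of -0.093 (-0.066 at 110 mg/L and -0.11 at 200 mg/L) and negative values in both experiments for 69. The 15.8% that passed, all falls, stand beside 18.9% of all genes called and 8.28% that fell. DBP8, a helicase of small subunit maturation (-0.27, with -0.19 at 110 and -0.35 at 200 mg/L), ENP1 (-0.17, with -0.15 at 110 and -0.19 at 200 mg/L) and RRP7 (-0.17, with -0.14 at 110 and -0.20 at 200 mg/L) were among them. The count of 12 depended on single arrays and on the scaling: leaving out LOEC control 2 gave 4, leaving out LOEC control 3 gave 25, and median centring gave 27.

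Heat shock and chaperone genes went down without exception among those that passed: 15 of 31 fell and 0 rose, with a median of -0.10 (-0.089 at 110 mg/L and -0.12 at 200 mg/L). SSA1 (YAL005C), a cytosolic chaperone, read 7337, 7054 and 7529 in the 110 mg/L arrays against 9181, 9015 and 9403 in the LOEC controls. SSA1 read 7034, 7186 and 8659 in the 200 mg/L arrays against 10149.8, 8612 and 9915 in the IC20 controls. The arrays separated at 110 mg/L, while 1 of the 200 mg/L arrays lay above the lowest of the IC20 controls, and the shared log2 change was -0.33 (SE 0.056, 95% interval -0.45 to -0.21, limma adjusted p = 0.00173). Its close relative SSA2 (-0.23, with -0.23 at 110 and -0.23 at 200 mg/L), the mitochondrial chaperone SSC1 (-0.21, with -0.22 at 110 and -0.21 at 200 mg/L) and the cochaperone STI1 (-0.21, with -0.22 at 110 and -0.20 at 200 mg/L) fell as well. SSA3 (-0.036), SSA4 (-0.062) and HSP104 (0.17), which are strongly induced by heat, did not pass. With the replicate number as a block 6 chaperone genes fell. Of 36 proteasome genes 5 fell and 1 rose, and the one that rose is the transcription factor of the group. The 16.7% that passed lay below the 18.9% of all genes. RPN4 (YDL020C) read 3394, 3390.1 and 3294 in the 110 mg/L arrays against 2128, 2169 and 2230.3 in the LOEC controls. RPN4 read 4035, 4706 and 4936 in the 200 mg/L arrays against 2358, 1812 and 2402 in the IC20 controls. The groups did not overlap, and the shared log2 change was 0.85 (SE 0.094, adjusted p = 9.34e-05). The subunits RPN10 (-0.19), PRE10 (-0.13) and PRE4 (-0.12) fell. The list of the proteasome had a median of -0.059 (-0.071 at 110 mg/L and -0.045 at 200 mg/L), with 9 falls after median centring, 3 to 7 without 1 array in turn and 1 with the replicate number as a block. Without 200 mg/L array 3 the count was 7, and without LOEC control 1 or 2, 110 mg/L array 1, IC20 control 2, or 200 mg/L array 1 or 2 it was 3.

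Peroxisome and beta-oxidation genes fell more often than they rose, 8 against 1 of 25, with a median of -0.075 (-0.061 at 110 mg/L and -0.053 at 200 mg/L). The enoyl-CoA isomerase ECI1 (-0.49, with -0.46 at 110 and -0.52 at 200 mg/L), the oleate-responsive factor PIP2 (-0.32, with -0.31 at 110 and -0.32 at 200 mg/L) and the thioesterase TES1 (-0.20, with -0.22 at 110 and -0.18 at 200 mg/L) fell, and the catalase CTA1 did so with all arrays below 228.8. The median was between -0.105 (without IC20 control 1) and -0.014 (without 110 mg/L array 2) when 1 array was left out, with 7 to 8 falls, and 5 genes fell with the replicate number as a block. In the respiratory chain 1 of 35 rose and 4 fell (2 to 4 without 1 array in turn), with a median of 0.0 (0.001 at 110 mg/L and -0.004 at 200 mg/L). The 14.3% that passed lay below the 18.9% of all genes. The cytochrome oxidase subunit COX5B, a form used at low oxygen (-0.35, with -0.35 at 110 and -0.35 at 200 mg/L), and the external NADH dehydrogenase NDE1 (-0.22, with -0.065 at 110 and -0.38 at 200 mg/L) fell.

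**Figure D4:**
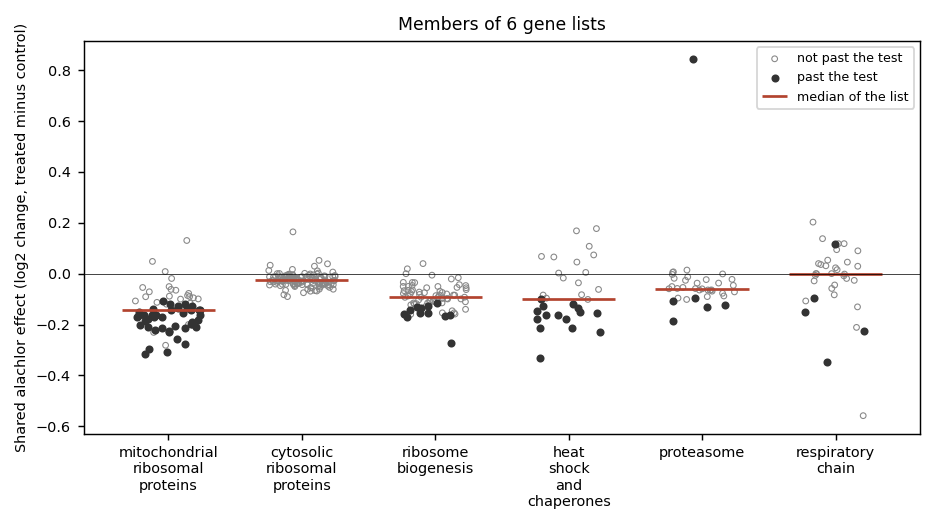
Shared effect (y axis, log2 change of treated over untreated arrays) of each measured member of 6 gene lists, filled where the shared test passed; the red line is the median of the list. Of the mitochondrial ribosomal proteins 43 of 69 fell around a median of -0.14, of the cytosolic ones 0 of 127 passed, and RPN4 stands alone among the proteasome genes at 0.85.

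General stress and reserve carbohydrate genes rose in 9 of 34 cases and fell in 1, beside 10.6% and 8.28% of all genes. Without 1 array in turn 7 to 12 rose. The median was 0.085 (0.10 at 110 mg/L and 0.10 at 200 mg/L), and the arrays overlapped in it. LOEC control 3 stood at 0.095 and the 110 mg/L arrays at 0.047 to 0.094. IC20 control 3 stood at 0.11 and the 200 mg/L arrays at 0.057 to 0.096. TSL1, a subunit of the trehalose synthase complex, rose by 0.57 (0.39 at 110 and 0.76 at 200 mg/L), whereas the glycogen phosphorylase GPH1 fell (-0.50, with -0.41 at 110 and -0.60 at 200 mg/L). The arrays of TSL1 overlapped at 110 mg/L and separated at 200 mg/L. XBP1 and TMA10 passed with all arrays below 228.8. Of 34 genes of the G1 and S phases 4 rose and 0 fell, close to the 10.6% of all genes, with a median of 0.083 (0.12 at 110 mg/L and 0.036 at 200 mg/L); CDC6, which loads replication origins, had 0.35 (0.38 at 110 and 0.32 at 200 mg/L).

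For 281 of the 1029 genes the shared effect passed although neither response did, 135 rising and 146 falling. By their p-value the leading rises were HST3, a histone deacetylase of the sirtuin family (0.21, with 0.24 at 110 and 0.18 at 200 mg/L), the folate enzyme MTD1 (0.18, with 0.20 at 110 and 0.16 at 200 mg/L), the tubulin folding factor CIN2 (0.20, with 0.21 at 110 and 0.18 at 200 mg/L), CDC6 and STB2 (0.23, with 0.26 at 110 and 0.21 at 200 mg/L). MTD1 read 9209.7, 9506 and 9418 in the 110 mg/L arrays against 8739, 7784 and 8081 in the LOEC controls. MTD1 read 8979, 9498 and 9439 in the 200 mg/L arrays against 8624, 7927 and 8454 in the IC20 controls. Its treated arrays lay above all controls of their experiment, although neither response passed. The adjusted p in limma was 0.00531 for the shared effect, 0.0634 at 110 mg/L and 0.0552 at 200 mg/L. The leading falls were the ribosomal RNA helicase HCA4 (-0.16, with -0.18 at 110 and -0.14 at 200 mg/L), the protein sorting factor CUR1 (-0.30, with -0.32 at 110 and -0.27 at 200 mg/L), BFR2 of the small subunit processome (-0.18, with -0.18 at 110 and -0.17 at 200 mg/L), CMC2 of respiratory complex assembly (-0.20, with -0.20 at 110 and -0.19 at 200 mg/L) and PRM7 (-0.34, with -0.39 at 110 and -0.28 at 200 mg/L). In each of these 10 both responses had the sign of the shared effect. Over the whole set of 1029, 690 genes had all treated arrays on one side of all controls in both experiments; over all genes such a separation held upward for 7.8% and downward for 5.56%.

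The shared value describes some genes better than others. Genes whose responses lay within 0.05 of each other on the log2 scale included SSA1 (difference 0.0041, SE 0.12), SSA2 (0.007, SE 0.075), COX5B (0.0036, SE 0.067), PST1 (0.0025, SE 0.09), ALD6 (0.0096, SE 0.071) and FAA2 (0.017, SE 0.16). A difference that did not pass does not show that the responses were equal. At the other end, 12 genes passed the test of the difference without a shared call. PDR10, an ABC exporter related to PDR5, read 1150.0, 1045 and 1116 in the 110 mg/L arrays against 1330.3, 1127 and 1312 in the LOEC controls. PDR10 read 2677, 2868 and 3129 in the 200 mg/L arrays against 1401, 1194 and 1285 in the IC20 controls. The LOEC experiment overlapped, and the 200 mg/L arrays lay above all IC20 controls (responses -0.18 at 110 mg/L and 1.16 at 200 mg/L). The exporter gene PDR15 (-0.24 at 110 mg/L and 0.38 at 200 mg/L) and the alcohol dehydrogenase gene ADH7 (-0.02 at 110 mg/L and 0.77 at 200 mg/L) were likewise higher at 200 mg/L, and the GATA family gene GAT2 (0.14 at 110 mg/L and -0.75 at 200 mg/L) and the mitochondrial citrate carrier CTP1 (0.0098 at 110 mg/L and -0.23 at 200 mg/L) were lower at 200 mg/L. A single gene, OPI3, of phosphatidylcholine synthesis, passed in both responses with opposite signs: -0.14 at 110 mg/L and 0.21 at 200 mg/L.

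**Figure D5:**
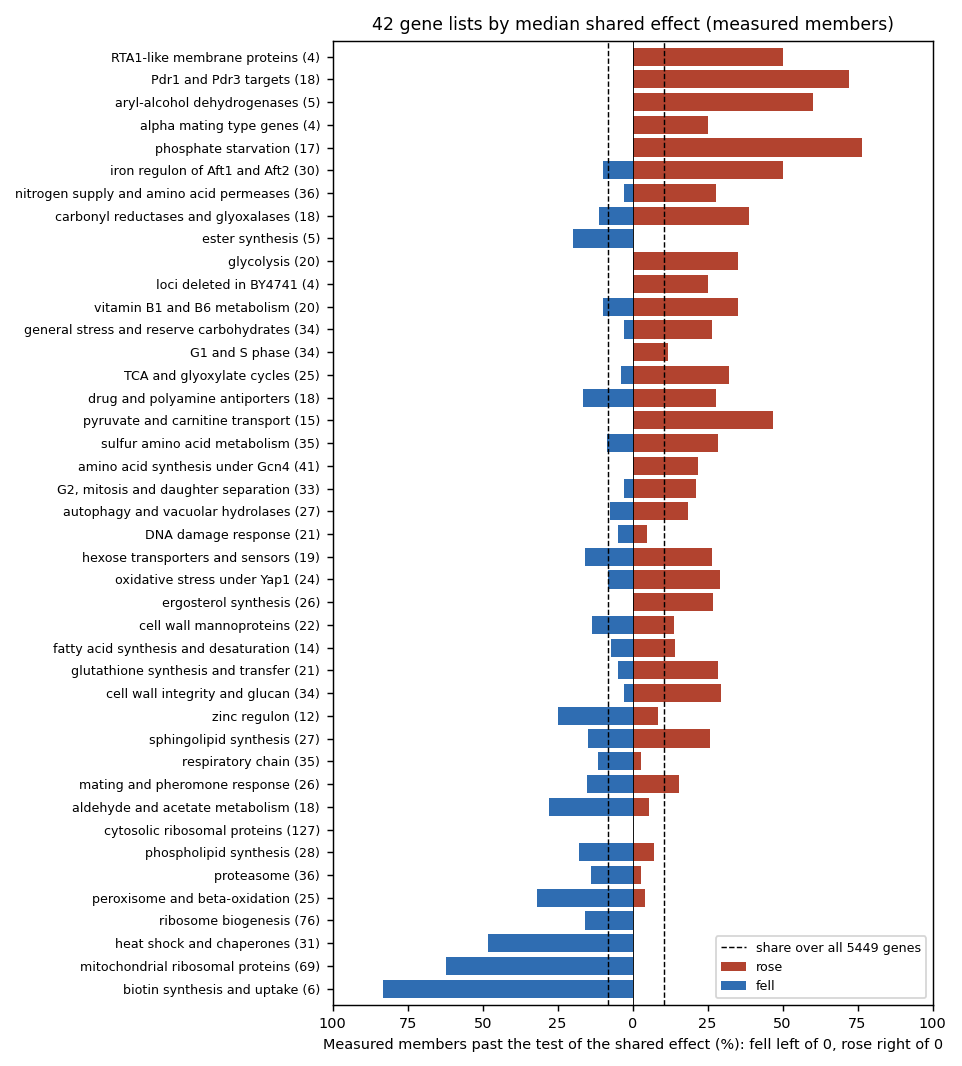
Share of the measured members (x axis, percent) of 42 gene lists that rose (red, right of 0) or fell (blue, left of 0) in the test of the shared effect, ordered by the median shared effect of the list, with the number of measured members in brackets; dashed lines mark the 10.6% and 8.28% of all 5449 genes. The phosphate starvation list (13 of 17) and the Pdr1 and Pdr3 targets (13 of 18) reach farthest to the right, the biotin list (5 of 6) and the mitochondrial ribosomal proteins (43 of 69) farthest to the left.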

How the data were processed

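Cultures of BY4741 were profiled on 12 one-colour arrays, 3 per group. The deposited values are intensities per probe set on a linear scale, already processed by the authors; the submitters' processing notes name Affymetrix Expression Console. The summarization, normalization and probe annotation build are not given in the sources used here, and scanner files were not used. As the values come without background or detection calls, the highest reading of the deleted loci LEU2, MET17 and URA3, 228.8, served as the level below which a fall or rise is only bounded. Such a bound sets the mean of the brighter group against the higher of 228.8 and the mean of the dimmer group.

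Of 5716 probe sets 5498 carried 1 gene symbol in the platform annotation and 218 none. These gave 5449 genes, all matched to RefSeq, with 12 symbols updated; for the 47 genes with several probe sets the brightest was kept, and for 117 genes the probe set also reads similar sequences. No sequence is shown, since no table with sequences was used here.

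Log2 intensities were fitted in limma 3.58.1 (R 4.3.3) with lmFit and eBayes, with 2-sided tests and Benjamini-Hochberg adjustment over 5449 genes. The shared effect came from a model of experiment plus alachlor (9 residual degrees of freedom), and the responses at each concentration and their difference from a model of 4 groups (8 residual degrees of freedom). Among the alternatives were median centring, quantile normalization, a filter on the dimmest 20%, every probe set, adding 16 to the intensities, trend and robust eBayes, equal weight of 4 group means, 1 weight per experiment, removal of the trend with coding length, leaving out IC20 control 2 and 200 mg/L array 1 together, stricter thresholds, each experiment fitted alone, the replicate number as a block and leaving out each array in turn. The fits were also run on simulated data with normal noise, independent between arrays and of 1 spread per gene. The real arrays differed in spread and in the trend with coding length, so that run does not bear on these features. The number of arrays limits the precision.

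The comparison and the 42 gene lists were chosen with earlier results of these data known, and 2 listed names that match other genes were dropped after the files were read. Genes were named by a rule: the 15 largest shared rises and 15 largest falls separated in both experiments, up to 4 members per list with the largest shared effect that passed, the 5 genes each way with the smallest p among those passing in neither response, and the 5 largest differences each way without a shared call. Named outside the rule, after their values were seen, were PDR5, PDR16, SNQ2, YLL056C, TPO1, PDR3, HXT11, PDR18, HXT9, BDH1, LIP1, LCB3, TSC10, ORM1, HXT3, HXT1, FET3, PHO84, PHO81, VTC1 to VTC4, GIT1, PHO4, PHM7, PHM8, THI80, BIO2, BPL1, SSA3, SSA4, HSP104 and OPI3.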

Additional observations from a re-analysis of the deposited data

Results flagged for a closer look

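The responses at 200 and at 110 mg/L differed beyond the spread of the arrays for 68 genes in limma's test of the difference, and the following values are log2 differences, 200 minus 110 mg/L. Among the largest shared rises the response was higher at 200 mg/L for RSB1 (0.92), GRE2 (0.88), ICT1 (0.645), CIS1 (1.22), YOR1 (0.72), RTA1 (1.49), MPC3 (0.90), BDH2 (0.92), FRM2 (0.77) and MET28 (0.70). Among the largest falls it was lower at 200 mg/L for YBL029W (-0.84), EEB1 (-0.38), PHO3 (-0.67) and FTR1 (-0.78). For RSB1, RTA1, MET28 and YBL029W an array of the dimmer group read below 228.8, so their fitted differences are no measure of size.

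Of the genes named from the lists, TPO4 (0.57), INO1 (2.06), ECM4 (0.48), GTT2 (0.51), AAD6 (1.47), AAD4 (0.73), GCY1 (0.58), CRC1 (0.87), YAT2 (0.40), PYC1 (0.55) and HMX1 (0.52) had the higher response at 200 mg/L. The same held for MEP2 (0.73), DAL3 (0.76), UGA1 (0.38), GPM2 (0.46) and CIT3 (0.60), while FET4 (-0.54) was lower there. AAD6 and CIT3 also had an array of the dimmer group below 228.8, so their fitted differences are no measure of size. Without a shared call, PDR10 (1.34), ADH7 (0.79), ATO2 (0.74), PDR15 (0.62) and DIA3 (0.41) were higher at 200 mg/L, and GAT2 (-0.90), FRE4 (-0.67) and CTP1 (-0.24) lower. Of these 39 differences 27 passed without any 1 array, and those of CTP1, ECM4, EEB1, FET4, GAT2, GPM2, GTT2, HMX1, ICT1, TPO4, UGA1 and YAT2 did not pass in at least 1 such fit. Concentration and experiment cannot be told apart in any of them.

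Outside the 5449 named genes, 45 of the 218 probe sets without a gene name (20.6%) passed the shared test in a fit of all probe sets, 30 of them higher and 15 lower in treated cultures, beside 18.9% of the named genes. The probe set 1776865_at had the highest value in the fit among them, and it is singled out after its values were seen. It read 469, 426 and 475 in the 110 mg/L arrays against 152, 155 and 172 in the LOEC controls, and 8249.5, 8178 and 7409 in the 200 mg/L arrays against 143, 140.0 and 153 in the IC20 controls. Over the 228.8 of the deleted loci the rise was at least 2.0-fold at 110 mg/L and at least 34.7-fold at 200 mg/L, and its gene is not named here.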

How the results depend on the processing

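None of the 1029 genes called for the shared alachlor effect changed sign under any alternative, which their choice on these same arrays largely fixes. The count stayed between 831 and 1216 under the scalings, filters, weights and models tried, apart from stricter thresholds and the block. That range includes the fit with IC20 control 2 and 200 mg/L array 1 left out together. The genes behind these counts changed in part. Median centring gave 1117 calls and kept 904 of the 1029. The fit with 1 weight per experiment gave 1014 and kept 916, and the fit without those arrays kept 770 (74.8%). An adjusted p under 0.01 left 502 genes for the shared alachlor effect, 108 for the response at 110 mg/L, 481 for the response at 200 mg/L and 32 for the difference of responses. A change of at least 2-fold left 30, 19, 53 and 8 in the same order, and 13 gene lists in place of 36 of 42 whose share of calls was above that of all genes. With 1 weight per experiment (1.47 for the LOEC and 0.682 for the IC20 arrays) the response at 110 mg/L passed for 527 genes and the response at 200 mg/L for 604. Fits of each experiment alone left 187 shared genes. Without 1 array in turn the shared alachlor effect passed for 796 to 1077 genes, the response at 110 mg/L for 113 (without LOEC control 2) to 266, the response at 200 mg/L for 713 to 973, the difference of responses for 39 (without 110 mg/L array 1 or IC20 control 1) to 68, and 32 to 36 lists stood above all genes. The response at 110 mg/L had 133 calls without LOEC control 1, and 117, 154 and 135 without 110 mg/L array 1, 2 and 3. The difference of responses had 45 and 42 calls without LOEC control 1 and 2, 41 without 110 mg/L array 3 and 43 without 200 mg/L array 2.

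Replicate numbers showed no clear pairing: arrays of the same number correlated in their deviations at -0.322, -0.01 and -0.134 in the LOEC experiment and at -0.615, -0.196 and 0.144 in the IC20 experiment. Treated and control arrays of unlike number correlated at -0.061 to 0.243 in the LOEC experiment and at -0.481 to 0.648 in the IC20 experiment. Deviations from a mean of 3 arrays depend on each other, so these values cannot exclude pairing. With the replicate number as a block the shared alachlor effect passed for 582 genes, 578 of them among the 1029, the response at 110 mg/L for 97, the response at 200 mg/L for 519 and the difference of responses for 21.

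The processing before deposit is unknown, and 92 of the called genes had an array of the dimmer group below 228.8, where a change is only bounded; 381 genes lay below it on all arrays.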

Other observations

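Genes of mitosis and daughter cell separation rose in 7 of 33 cases and fell in 1, beside 10.6% and 8.28% of all genes, with a median of 0.057 (0.075 at 110 mg/L and 0.043 at 200 mg/L). DSE4, a glucanase that helps daughters to separate, rose by 0.34 (0.38 at 110 and 0.29 at 200 mg/L), with all treated arrays above the controls of their experiment, while the mitotic cyclin gene CLB1 fell (-0.31, with -0.25 at 110 and -0.36 at 200 mg/L). Of 26 mating and pheromone genes 4 rose and 4 fell, again beside 10.6% and 8.28% of all genes. Without 1 array in turn 2 (without 110 mg/L array 1 or IC20 control 1) to 4 rose, and 1 (without IC20 control 3) to 5 (without LOEC control 1) fell; with the replicate number as a block 1 fell. PRM4 (0.44, with 0.51 at 110 and 0.37 at 200 mg/L) and PRM5 (0.38, with 0.31 at 110 and 0.44 at 200 mg/L) rose, and AGA1, the anchor of the a-agglutinin, fell (-0.29, with -0.37 at 110 and -0.22 at 200 mg/L).

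Of 27 genes of autophagy and vacuolar hydrolases 5 rose and 2 fell, beside 10.6% and 8.28% of all genes, with 3 to 6 rises without 1 array in turn. Among the rises were the vacuolar mannosidase AMS1 (0.50, with 0.22 at 110 and 0.78 at 200 mg/L) and the conjugated autophagy protein ATG8 (0.24, with 0.13 at 110 and 0.35 at 200 mg/L). In both the arrays overlapped at 110 mg/L and separated at 200 mg/L. Of 21 DNA damage genes 9.52% passed, below the 18.9% of all genes. HUG1 (0.36, with 0.22 at 110 and 0.50 at 200 mg/L) rose and RAD16 (-0.29, with -0.15 at 110 and -0.43 at 200 mg/L) fell, and HUG1 did not pass in at least 1 fit without a single array. All 4 RTA1-like genes had positive values in both experiments, and 2 of them, RSB1 and RTA1, passed.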
